A study of Mus musculus with 16 samples.

Results

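Mitochondrial ribosomal protein genes are nuclear genes whose products are imported into mitochondria and assembled there with the mitochondrial ribosomal RNAs. The small subunit of that ribosome reads the messenger RNA, and the large subunit joins the amino acids. It makes the few respiratory chain proteins that mitochondrial DNA encodes, which matters in liver because hepatocytes are rich in mitochondria. The genes were taken by symbol: every protein-coding mouse gene whose symbol starts with Mrpl (large subunit) or Mrps (small subunit) and a digit. This gave 78 genes, 29 named for the small and 49 for the large subunit, read by 100 of the 55681 probes on the array. The names do not track structure in every case. The proteins of Mrps30 and Mrps18a sit in the large subunit, the protein of Mrps36 is a part of the 2-oxoglutarate dehydrogenase complex, and the genes are counted below by symbol.

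RNA came from livers of female B6C3F1 mice, bought at 5 to 6 weeks of age and acclimatised for at least 7 days. Furan, a hepatotoxic compound formed in heated food, was given by gavage in corn oil at 8 mg/kg body weight for 21 days. Control mice had only the oil, and livers were taken 4 h after the last dose. Formalin fixation lasted 18 h or 3 weeks, paraffin embedding followed, and RNA was extracted from 1 section of 10 µm (18 h) or 2 such sections (3 weeks), so formalin time and section number cannot be told apart. There were 4 livers in each of the groups corn oil 18 h, furan 18 h and furan 3 weeks. The corn oil 3-week group had 4 arrays, of which 2 carried the same sample number (2.1 and 2.2) and were averaged, which left 3 samples. The labels repeat sample numbers across formalin times without saying that the numbers mark one animal. Each array compared a sample with 1 pool of all samples, and every value below is the log2 ratio of sample to pool for one probe. A difference of 1 on this scale is 2-fold, and values are compared within a probe only.

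The RNA was degraded, with RNA integrity numbers of 1.3 to 2.4. The share of all probes well above background was 44.3% to 50.1% in the corn oil 18 h arrays and 51.9% to 55.2% in the furan 18 h arrays. It was 32.3% to 36.7% and 35.9% to 41.4% in the corn oil and furan arrays at 3 weeks. Of the 100 member probes, 89 to 95, 95 to 96, 69 to 78 and 77 to 83 were above background in these groups in the same order. A probe was tested when it was well above background on at least 3 arrays of 1 group, and 95 member probes from 74 genes (28 small, 46 large) passed, beside 22024 genes or transcripts in all. Mrpl19, Mrpl21 and Mrpl35 were above background on 0 arrays, and Mrps35 on 2 furan arrays at each time, so these 4 were not tested. The members were bright: the median mean log2 signal of the 74 genes was 10.05, above 78.5% of all genes tested. Among hepatocyte markers all 8 were tested. Of the other defining markers, those of bile duct, lymphocytes and neutrophils were mostly below the filter, with 2 of 5, 2 of 6 and 2 of 4 tested.

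The regulatory sequence of these genes is shown first, because expression of mitochondrial genes in the nucleus is known to use a few shared factors, among them nuclear respiratory factor 1 (NRF1), the ETS factor GABP (also called NRF2) and YY1. RefSeq promoter windows, from 250 bases before to 50 after a start site on GRCm38.p6, existed for 69 of the 78 genes (75 windows). They were searched on both strands for 3 core motifs: the NRF1 core, the ETS core CCGGAAGT and the YY1 core. The NRF1 core stood in 13 windows (17.3%, against 4.6% of all 32851 windows and 6.38% of windows of protein-coding genes). The ETS core stood in 12 (16%, against 3.89% and 5.15%) and the YY1 core in 5 (6.67%, against 0.852% and 1.21%). At least 1 of the 3 was present in 28 windows (37.3%, against 8.79% and 12%). A match describes the letters in the window and is not evidence of binding.

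The 150 bases before the start site follow for Mrpl12, the stalk protein that also binds the mitochondrial RNA polymerase, and for the 4 named members with the smallest p-values in the comparisons below, Mrps26, Mrps14, Mrps15 and Mrps17. All 5 genes lie on the plus strand, at chr11:120484487-120484636, chr2:130563607-130563756, chr1:160195065-160195214, chr4:126046778-126046927 and chr5:129715347-129715496 in that order. Capitals mark the motif matches, an NRF1 core in Mrpl12 and an ETS core in Mrps26, both read on the other strand.
Mrpl12: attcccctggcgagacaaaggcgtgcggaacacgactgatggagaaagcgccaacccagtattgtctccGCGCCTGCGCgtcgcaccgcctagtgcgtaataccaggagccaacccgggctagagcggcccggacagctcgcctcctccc
Mrps26: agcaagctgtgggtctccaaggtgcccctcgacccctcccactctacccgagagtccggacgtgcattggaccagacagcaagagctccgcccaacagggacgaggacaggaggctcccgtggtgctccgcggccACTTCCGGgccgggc
Mrps14: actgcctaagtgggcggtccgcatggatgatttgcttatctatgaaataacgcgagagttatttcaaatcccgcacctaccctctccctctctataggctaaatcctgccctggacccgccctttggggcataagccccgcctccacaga
Mrps15: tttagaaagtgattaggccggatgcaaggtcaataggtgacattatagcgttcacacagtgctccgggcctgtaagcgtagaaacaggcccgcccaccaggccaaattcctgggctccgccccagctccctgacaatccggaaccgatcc
Mrps17: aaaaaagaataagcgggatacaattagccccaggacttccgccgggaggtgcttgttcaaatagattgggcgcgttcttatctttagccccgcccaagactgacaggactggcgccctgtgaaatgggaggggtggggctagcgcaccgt
The NRF1 core of Mrpl12 lay 81 to 72 bases before the start. In Mrps26 the ETS core lay 15 to 8 bases before it, and 2 overlapping NRF1 cores, from base -2 to 8 and from 5 to 14 around the start, fall mostly outside the stretch shown. The windows of Mrps14, Mrps15 and Mrps17 held none of the 3 motifs. Mrps26 and Mrps14, with 3 matches and 0, are the members that rose most with formalin time below.

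The first comparison asked how furan-exposed livers differed from corn oil livers after the short fixation of 18 h. Members of the large subunit rose more often than they fell, and the small subunit held the 4 largest falls. Of the 74 members, 35 rose and 10 fell at an adjusted p under 0.05 (limma, Benjamini-Hochberg over all 29690 probes tested), which is 60.8% called where 48.2% of all genes were called. The shares in each direction were 47.3% higher and 13.5% lower among members, against 21.7% and 26.6% among all genes. By subunit, 24 of 46 large subunit genes rose and 5 fell, and 11 of 28 small subunit genes rose and 5 fell. The median difference, furan minus corn oil, was 0.19 over the members and -0.04 over all genes. The values of the 2 groups did not overlap for 42 members (56.8%, against 40.3% of all genes). With probes above background on every array only, 59 members were tested and 67.8% were called, against 63.2% of all genes. Of these members 52.5% were higher, against 26.8% of all genes. Under median centring of the arrays in place of the intensity-dependent loess, the median of all genes moved to 0.13 and the calls to 57 higher and 2 lower (79.7% of members, against 44.1% of all genes). With the authors' deposited values they were 46 higher and 6 lower (70.3% against 49.2%). The larger share of members called did not hold on slide 1 alone, with 13 higher and 5 lower or 24.3%, against 27.9% of all genes. Slide 2 alone gave 14 higher and 7 lower, or 28.4% against 24.1%. The shares called higher were 17.6% and 18.9% of members on slides 1 and 2, against 11.0% and 10.8% of all genes.

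**Figure D1:**
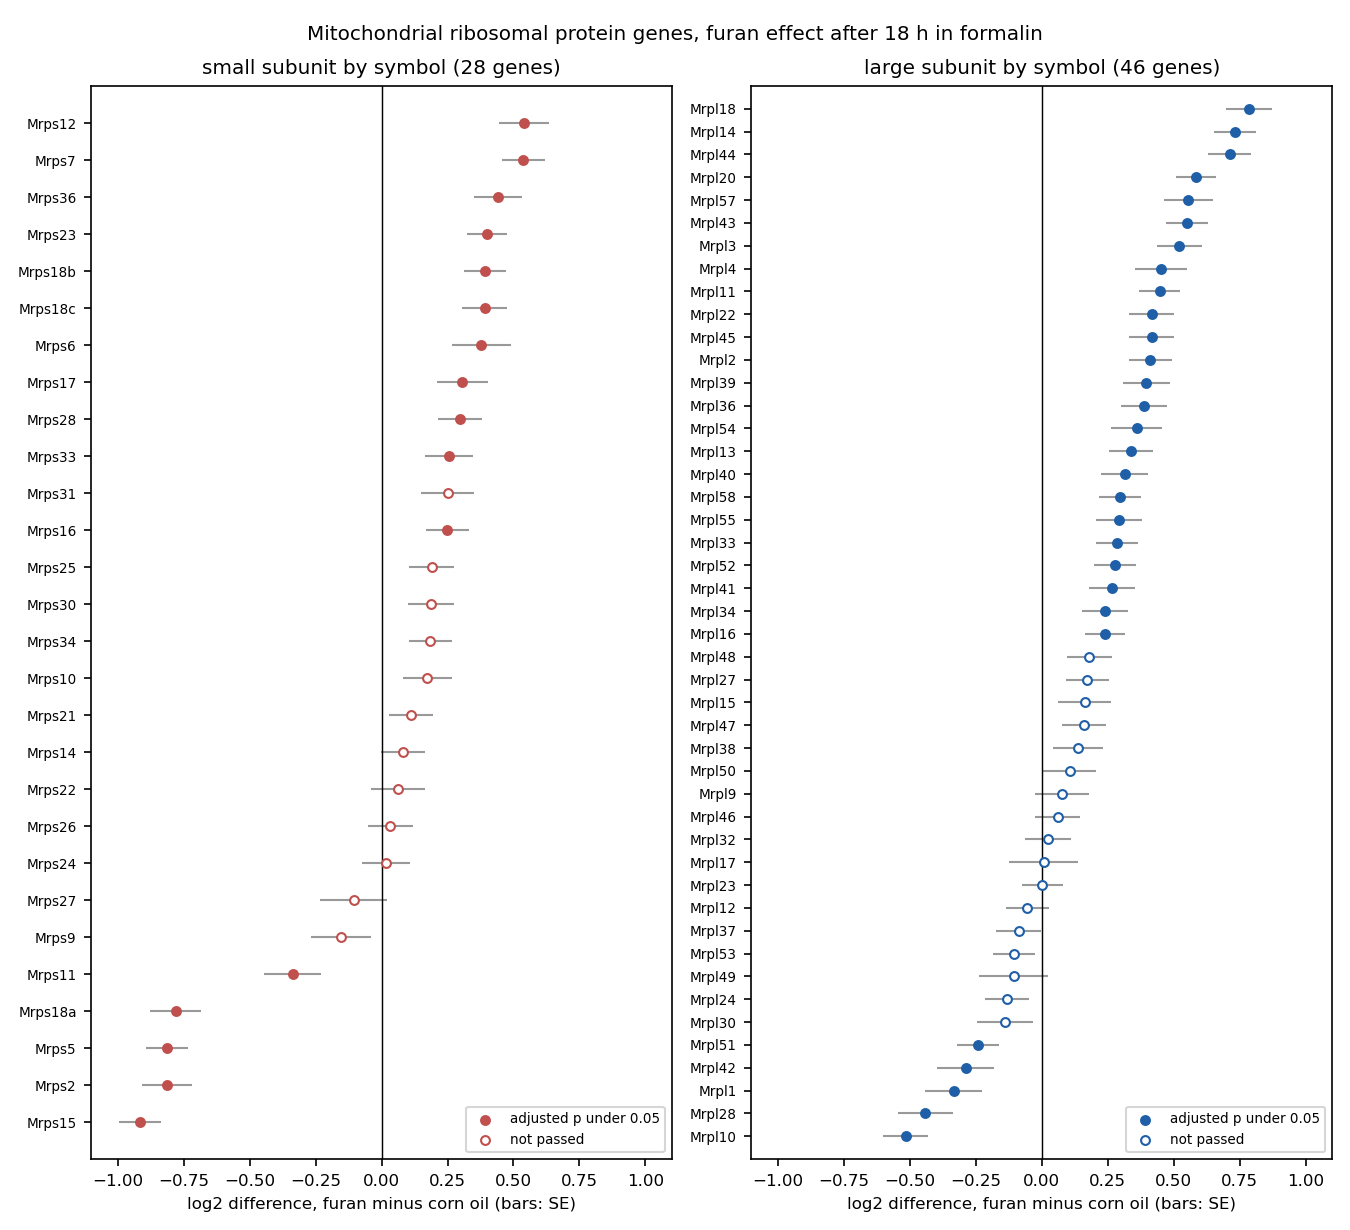
Each row is 1 of the 74 tested genes, with the log2 difference between furan and corn oil livers after 18 h in formalin on the x axis and its standard error as a bar, small subunit genes on the left and large subunit genes on the right. Filled points passed an adjusted p of 0.05: 35 lie right of 0 and 10 left of it, and Mrps15, Mrps2, Mrps5 and Mrps18a stand apart at the lower end.

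The falls were led by Mrps15, a small subunit protein with a bacterial counterpart. Its log2 ratios were 0.70, 0.61, 0.67 and 0.77 in the corn oil livers and -0.32, -0.19, -0.18 and -0.21 in the furan livers. Every furan liver lay below every control, a fall of 0.91 (SE 0.08; adjusted p = 2.08e-05, limma). Mrps5, a core protein of the small subunit, read 0.70, 0.57, 0.69 and 0.79 in controls and -0.17, -0.12, -0.10 and -0.12 with furan. The groups were again apart, with a difference of -0.81 (SE 0.08; adjusted p = 3.76e-05, limma). Mrps2, which like its bacterial counterpart lies on the outer face of the small subunit, read 0.52, 0.69, 0.77 and 0.51 in controls and -0.18, -0.18, -0.37 and -0.04 with furan, a difference of -0.81 (SE 0.10). Mrps18a, whose protein belongs to the large subunit, read 0.73, 0.48, 0.61 and 0.88 and then -0.30, -0.05, -0.12 and 0.07, a difference of -0.78 (SE 0.10). In all 4 genes the controls were within 0.48 to 0.88 and the highest furan value was 0.07. On slide 1 alone the falls were -0.89, -0.77, -0.91 and -0.72 for Mrps15, Mrps5, Mrps2 and Mrps18a, and on slide 2 alone -0.93, -0.85, -0.72 and -0.84. Under median centring they were smaller, -0.40, -0.36, -0.31 and -0.26, and Mrps2 and Mrps18a no longer passed (adjusted p = 0.0582 and 0.126, limma).

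Among the other falls, Mrpl10, which anchors the ribosomal stalk, read 0.53, 0.69, 0.57 and 0.52 in controls and -0.00, 0.25, -0.01 and 0.03 with furan. Its difference was -0.52 (SE 0.09), the largest fall of the large subunit, and its groups did not overlap. Mrpl28 fell by 0.44, with controls from 0.42 to 0.79 and furan livers from -0.04 to 0.30. Under median centring Mrpl10 and Mrpl28 lost their calls (-0.03 and -0.06), and Mrpl51, at -0.24, turned to 0.30. Mrpl51 also lost its call on each slide alone and without corn oil liver 4 or 6 or any 1 of the furan livers (adjusted p up to 0.0756, limma), and Mrpl28 lost its call on slide 1 (-0.31). Mrps11, Mrpl1 and Mrpl42, at -0.34, -0.33 and -0.29, passed the test although a control and a furan liver overlapped.

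The rises were led by 3 large subunit genes. Mrpl18, a relative of the bacterial protein that binds 5S RNA, read -0.44, -0.23, -0.37 and -0.33 in controls and 0.49, 0.56, 0.25 and 0.48 with furan. Every control was below 0 and every furan liver above it, a rise of 0.78 (SE 0.09; adjusted p = 7.49e-05, limma) or 1.72-fold. Mrpl14, at the subunit interface, read -0.39, -0.46, -0.42 and -0.23 and then 0.23, 0.25, 0.45 and 0.50, a rise of 0.73 (SE 0.08). Mrpl44, which carries a ribonuclease III fold, read -0.51, -0.41, -0.29 and -0.46 and then 0.27, 0.42, 0.29 and 0.22, a rise of 0.71 (SE 0.08). As with Mrpl18, the sign of the log2 ratio separated the groups in both genes. Mrpl20 and Mrpl57 rose by 0.58 and 0.56. Mrpl3, a protein close to the catalytic centre, rose by 0.52, with controls from -0.21 to -0.00 and furan livers from 0.30 to 0.51. All 6 of these rises kept their direction and passed the test on each slide alone.

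In the small subunit, Mrps12, part of the decoding centre, read -0.30, 0.04, 0.08 and 0.05 in controls and 0.54, 0.55, 0.52 and 0.42 with furan, a rise of 0.54 (SE 0.09). Mrps7 read -0.16, -0.36, -0.34 and -0.33 and then 0.25, 0.09, 0.28 and 0.34, also a rise of 0.54 (SE 0.08). Both genes had 1 control, liver 2, that stood apart from the other 3, below them in Mrps12 and above them in Mrps7, and in neither did the groups overlap. Mrps36, Mrps23 and Mrps18b rose by 0.44, 0.40 and 0.39, and each passed on only 1 of the 2 slides alone. The second probes of Mrps7 and Mrps18b stood at -0.17 and -0.20 (SE 0.10 and 0.08) and did not pass. That of Mrps23 fell by 0.35, and that of Mrps36 rose by 0.39. Of the genes chosen by role, Mrpl58, a release enzyme built into the large subunit, Mrpl41 and Mrps16 rose by 0.30, 0.27 and 0.25. None of these 3 passed on either slide alone. Mrpl41 also lost its call without corn oil liver 2 or 4 or furan liver 41 or 43 (adjusted p up to 0.0846, limma), and Mrps16 without corn oil liver 2 or 6 or furan liver 42 or 44 (up to 0.0894). Mrps22, Mrps30 and Mrpl12 did not pass the test, at 0.06, 0.19 and -0.06 (SE 0.10, 0.09 and 0.08), and the sign of Mrpl12 turned under median centring (0.45) and in the authors' values (0.07).

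Hepatocyte markers moved with this comparison. Of 8, 6 were lower and 1 was higher in furan livers, with a median difference of -0.71, and the median log2 ratio of the list ran from 0.40 to 0.56 across control livers and from -0.03 to 0.18 across furan livers. Of 4 erythroid markers tested, 3 were lower, of 6 stellate markers 4 lower and 1 higher, of 5 endothelial markers 3 lower and 1 higher, and of 6 macrophage markers 1 lower. Of the 2 tested markers each, 1 lower was counted in bile duct and in lymphocytes and 0 in neutrophils. In whole liver RNA fewer cells of a type and less RNA per cell cannot be told apart, and the part of these markers in the member differences was not tested. The median log2 ratio over all members went the other way, from -0.13 to -0.04 across the control livers to 0.07 to 0.15 across the furan livers.

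The rest of the mitochondrial gene expression machinery was read from lists chosen by function. In the 5 mitochondrial ribosome proteins with other names, 2 rose at 18 h (Chchd1 by 0.35 and Gadd45gip1 by 0.32) and 0 fell. Of 13 translation factors 3 rose and 0 fell, led by Slirp, which stabilises mitochondrial messenger RNA, at 0.35, and Mtres1 at 0.29. Of 17 enzymes of mitochondrial transfer RNA charging 5 rose and 2 fell, with Iars2 at -0.75 and Tars2 at 0.57. Of 19 assembly and ribosomal RNA modification genes 6 rose and 4 fell, with Mpv17l2 at -0.67 and Mtg2 at 0.59. Of 14 genes that maintain and transcribe mitochondrial DNA 6 rose and 5 fell, among them Tfam, the packaging and transcription factor, at -0.59 and Tfb2m at 0.52. Of 9 regulators 4 rose and 2 fell. The factors whose motifs were searched did not move together: Nrf1 fell by 0.47, Gabpb1 and Yy1 rose by 0.38 and 0.43, and Gabpa stood at -0.04 without passing. Nuclear genes of oxidative phosphorylation, whose proteins join those made by this ribosome, had 30 of 81 higher and 10 lower and a median of 0.16. Cytosolic ribosomal protein genes had 27 of 83 higher and 18 lower and a median of 0.10. In the order given, the lists had 40.0%, 23.1%, 41.2%, 52.6%, 78.6%, 66.7%, 49.4% and 54.2% called. Of all genes 48.2% were called, 21.7% higher and 26.6% lower. The 23.1% of the 13 translation factors were all higher, near the share of all genes, with 0 lower, and this is a small count.

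**Figure D2:**
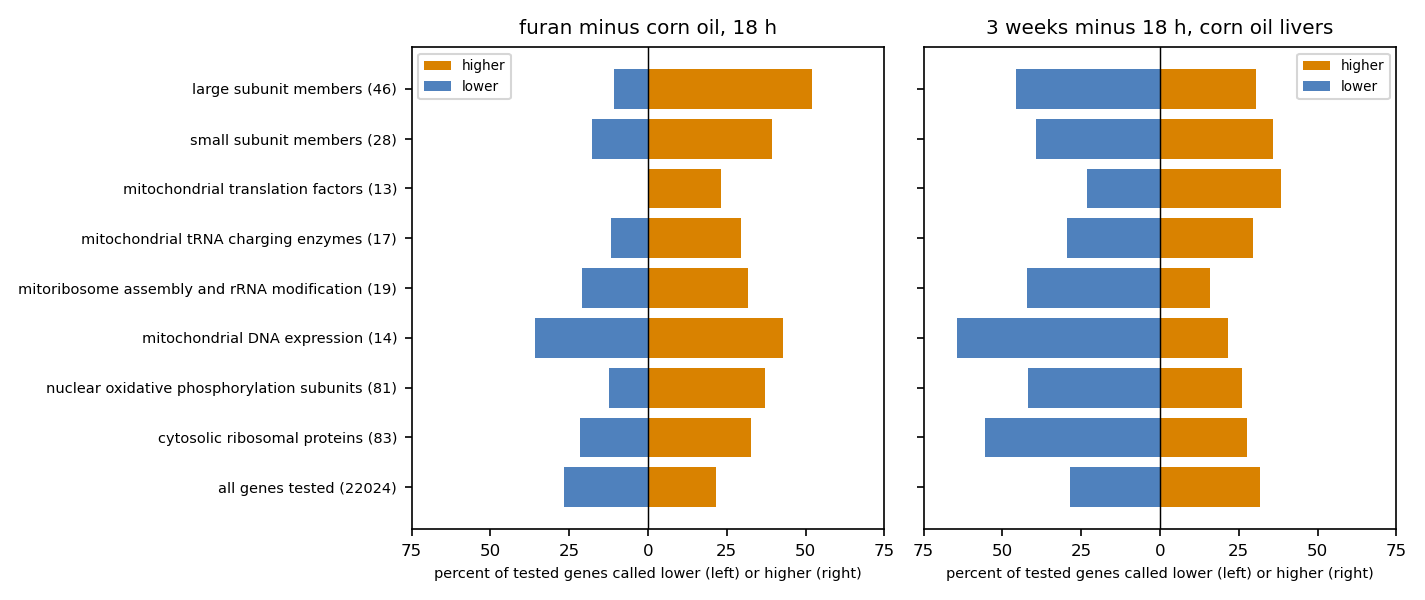
Bars give the percent of tested genes called higher (right) or lower (left) at an adjusted p under 0.05 in each list, with the number tested in brackets and all 22024 genes at the bottom, for furan against corn oil at 18 h and for 3 weeks against 18 h of formalin in corn oil livers. Members of both subunits had more rises than falls with furan, where all genes had 21.7% higher and 26.6% lower, and more falls than rises with formalin time.

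After 3 weeks in formalin the same question, furan against corn oil, gave 0 calls among the 74 members by limma, where 0.136% of all genes were called (0.104% higher and 0.0318% lower). At an unadjusted p under 0.05 there were 13 members (17.6%, against 14.6% of all genes), and all 13 were higher. The difference was positive in 58 of 74 members (78.4%, against 50.2% of all genes), with a median of 0.13 against 0.0009. With the authors' deposited values 0 passed as well. Median centring, which moved the median of all genes to 0.11, gave 21, all higher (28.4% of members, against 9.30% of all genes). A fit over all 15 samples gave 6, all higher and 8.11% against 4.79% (Mrpl16, Mrpl20, Mrpl45, Mrps18b, Mrps33 and Mrps36). The groups did not overlap for 24 members, or 32.4%, against 14.5% of all genes.

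The largest difference at 3 weeks was that of Mrps33, a small subunit protein found only in mitochondrial ribosomes. It read -0.26, -0.11 and -0.12 in the 3 corn oil samples and 0.72, 0.65, 0.26 and 0.03 in the furan livers, a difference of 0.58 (SE 0.15; adjusted p = 0.164, limma). The groups were apart, but furan livers 43 and 44 lay nearer to the controls than 41 and 42 did. Mrps18b read -0.11, 0.02 and -0.18 and then 0.43, 0.32, 0.43 and 0.36, a difference of 0.47 (SE 0.13; adjusted p = 0.1755, limma), with a clear gap between the groups. The second probe of Mrps18b went the other way, at -0.32 (SE 0.14), also without overlap, and did not pass. That probe was above background on 0 of 4 arrays in either group. Mrpl38 and Mrpl45 had differences of 0.52 and 0.49, and the corn oil and furan samples of Mrpl38 overlapped. The 4 strongest falls at 18 h were near 0 here: Mrps15 -0.09 (SE 0.16), Mrps5 0.05 (SE 0.22), Mrps2 0.02 (SE 0.17) and Mrps18a 0.04 (SE 0.17). The leading rises Mrpl18 and Mrpl14 stood at 0.06 and -0.00 (SE 0.15 and 0.14), and Mrpl44 at 0.31 (SE 0.14). Hepatocyte markers had 0 of 8 called and a median of -0.24, and every pathway list above had 0 called.

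Whether the furan difference itself changed with formalin time was tested as an interaction over all 15 samples. It passed for 10 members (13.5%, where 12.6% of all genes passed, 7.43% higher and 5.16% lower). In 4, all with Mrps symbols, the furan fall at 18 h was not seen at 3 weeks: the change in the difference, 3 weeks minus 18 h, was 0.87 for Mrps5, 0.83 for Mrps2, 0.82 for Mrps15 and 0.82 for Mrps18a (adjusted p = 0.0238, 0.00847, 0.005775 and 0.0316, limma). In 6 the furan difference was lower at 3 weeks than at 18 h, by -0.74 in Mrpl14, -0.72 in Mrpl18, -0.64 in Mrpl54, -0.46 in Mrpl36, -0.45 in Mrpl2 and -0.43 in Mrps7. The second probe of Mrps2 also passed, at 0.73, while that of Mrps7 stood at 0.17 (SE 0.19) and did not pass. This second probe of Mrps2 was above background on 1 of 4 corn oil arrays at 3 weeks, so the size of its change is uncertain. The count rests on both slides together, since each slide alone gave 0 calls, with 8 and 13 members at an unadjusted p under 0.05. Without corn oil liver 6 at 18 h, furan liver 43 at 18 h or corn oil sample 6 at 3 weeks the count was 6, 6 and 5. Median centring also gave 10, but all lower: the 4 positive changes were then 0.60 to 0.62 and did not pass. Mrps15, Mrps2, Mrpl14, Mrpl18 and Mrpl54 passed in each fit that left out 1 sample. The probe of Mrpl54 was above background on 2 of 4 corn oil and 2 of 4 furan arrays at 3 weeks. Its corn oil arrays 2.1 and 2.2, averaged as 1 sample, read -0.18 and -0.95, so the size of its change is uncertain. With sample numbers taken as pairs across formalin times, 3 members passed (Mrps15, Mrpl18 and Mrpl54).

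**Figure D3:**
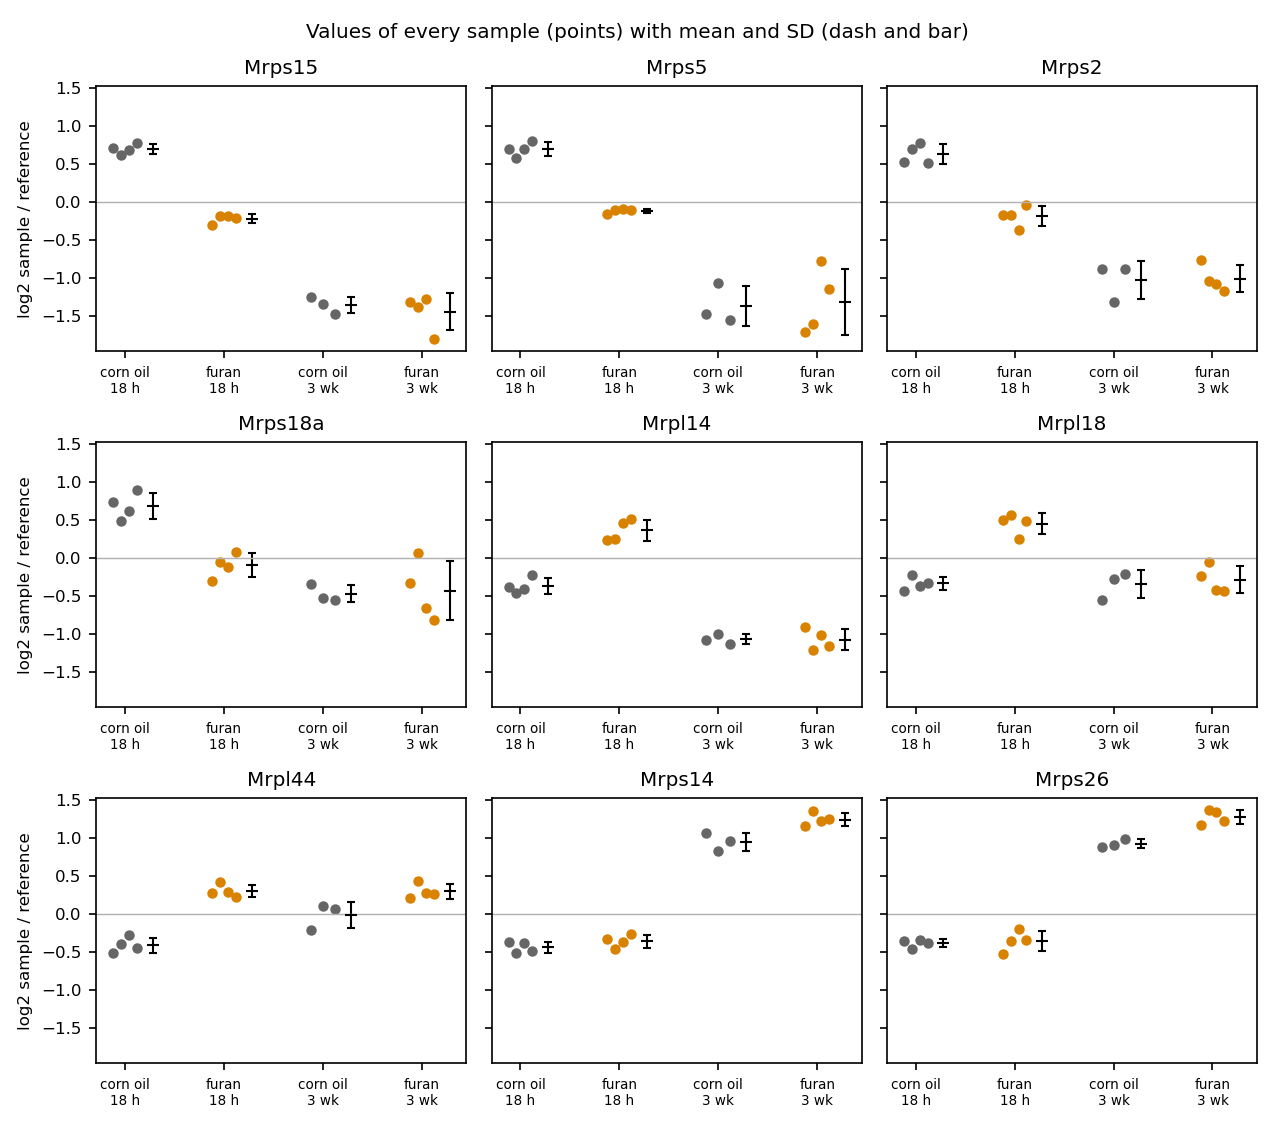
Points are the log2 ratios of single livers to the pool in the 4 groups for 9 members, grey for corn oil and orange for furan, with the group mean and SD as a dash and bar. Mrps15, Mrps5, Mrps2 and Mrps18a separate the treatments at 18 h and not at 3 weeks, Mrpl14, Mrpl18 and Mrpl44 are higher with furan at 18 h, and Mrps14 and Mrps26 separate the formalin times.

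The next comparison asked what 3 weeks of formalin, against 18 h, did to the readings in corn oil livers. The differences were larger than those of furan and ran in both directions among genes of one complex. Of 74 members 24 were higher and 32 lower at 3 weeks, or 75.7% called against 60.3% of all genes, of which 31.8% were higher and 28.5% lower. The groups did not overlap for 59 members (79.7%, against 60.0% of all genes). In the small subunit 10 were higher and 11 lower of 28, and in the large subunit 14 higher and 21 lower of 46. The middle of the absolute differences was 0.53 among members and 0.46 among all genes. Among the 59 members whose probes were above background on every array, rises and falls were near equal, 24 higher and 23 lower. The share of these members called, 79.7%, was close to that of all genes under the same filter. Called higher were 40.7% of them, against 46.4% of all genes. Under median centring, which moved the median of all genes from 0.06 to -0.22, the split was 8 higher and 45 lower. Within slide 1 and within slide 2, 41 members passed, 16 higher and 25 lower on each, which is 55.4% against 47.9% and 47.0% of all genes.

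Mrps5 had the largest fall, from 0.69 ± 0.09 (SD, n = 4) at 18 h to -1.37 ± 0.26 (SD, n = 3). The 3-week samples read -1.48, -1.07 and -1.56 against 0.57 or more in every 18 h liver, and the difference was -2.06 (SE 0.17), or 4.16-fold. Mrps15 fell by 2.05 (SE 0.12) to -1.26, -1.35 and -1.47, and Mrps2 by 1.66 (SE 0.13) to -0.89, -1.33 and -0.89. Mrpl37, a large subunit protein specific to mitochondria, fell from 0.35 ± 0.08 to -1.27 ± 0.38, a difference of -1.62. Mrpl42, Mrps18a, Mrps17 and Mrpl34 fell by 1.30, 1.15, 1.12 and 1.11. The second probe of Mrps17, above background on every array, stood at -0.22 (SE 0.14) and did not pass. Mrpl1 and Mrpl46, whose probes were above background on 0 of the 3-week corn oil arrays, fell by at least 1.38-fold and 1.31-fold. The furan comparison at 18 h uses the same 4 corn oil livers, in which Mrps5, Mrps15 and Mrps2 read 0.51 to 0.79, so the furan and formalin differences of these genes share their controls.

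Mrps14, a small subunit protein with a bacterial counterpart, rose most. It read -0.38, -0.52, -0.38 and -0.49 at 18 h and 1.06, 0.83 and 0.95 at 3 weeks, a rise of 1.39 (SE 0.10; adjusted p = 5.29e-09, limma). Mrps26, a protein of the small subunit without a bacterial counterpart, read -0.37, -0.47, -0.35 and -0.39 and then 0.88, 0.90 and 0.98, a rise of 1.31 (SE 0.10). In both genes every 18 h liver was below 0 and every 3-week sample above it, with little spread within a time. The second probe of Mrps26, above background on every array, stood at 0.15 (SE 0.13) and did not pass. Mrps16 and Mrps36 rose by 1.13 and 1.04 in the small subunit. In the large subunit Mrpl55, Mrpl23, Mrpl4, Mrpl58 and Mrpl22 rose by 1.01, 0.97, 0.96, 0.92 and 0.89, among which the proteins of Mrpl23, Mrpl4 and Mrpl22 lie along the tunnel for the new protein or at its exit. Mrpl22 lost its call under median centring (0.32; adjusted p = 0.0935, limma). Mrpl12 and Mrps22 fell by 0.40 and 0.96, and Mrps12, above background on 1 of 4 corn oil arrays at 3 weeks, by 0.63. Mrpl44, Mrps7 and Mrps18b rose by 0.40, 0.58 and 0.27, and all 3 turned negative under median centring (-0.23, -0.01 and -0.04). Mrps30, at 0.18, did not pass and also turned (-0.45).

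In furan livers the same formalin comparison called 21 members higher and 34 lower, 74.3% where 68.8% of all genes were called (38.6% higher and 30.2% lower). The groups did not overlap for 54 members (73.0%, against 59.9% of all genes). Mrps26 and Mrps14 led the rises at 1.63 and 1.60 (SE 0.09 each), followed by Mrpl23 and Mrps16 at 1.22 each. Mrps26 read -0.53, -0.36, -0.21 and -0.35 at 18 h and 1.16, 1.36, 1.33 and 1.22 at 3 weeks, with no overlap. Mrps17 fell most, by 1.54 (SE 0.10), from 0.31, 0.37, 0.51 and 0.35 to -1.14, -1.03, -1.15 and -1.32, also with no overlap. Neither leader was matched by its second probe, each above background on every array: that of Mrps17 stood at -0.14 (SE 0.13) and that of Mrps26 at 0.099 (SE 0.12), and neither passed. Mrpl37, Mrpl14 and Mrpl43 fell by 1.46, 1.44 and 1.28, and Mrps15 and Mrps5 by 1.23 and 1.19. Median centring gave 5 higher and 52 lower here, with the median of all genes at -0.27. With probes above background on every array only, 76.3% of members were called, against 80.3% of all genes. Within slides 47 members (63.5%, against 55.9% and 51.3% of all genes) passed on each, 20 higher and 27 lower on slide 1 and 18 higher and 29 lower on slide 2. Hepatocyte markers fell with formalin time as well: 6 of 8 were lower and 1 higher in corn oil livers (median -1.07), and 5 lower and 1 higher in furan livers (median -1.11), and their part in the member differences was not tested.

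The corn oil and furan livers share no samples between these 2 formalin comparisons, apart from the common pool. Across the 74 members the differences correlated at r = 0.90, and 71 (95.9%) had the same sign, among all genes r = 0.89 and 85.3%. Of the 74 members, 46 were called the same way in both treatments and 0 in opposite ways. Of all 22024 genes, 11014 were called the same way in both and 125 in opposite ways. The furan differences at 18 h and at 3 weeks, which likewise share no array, correlated at r = 0.31 across the members, with 54 (73.0%) of the same sign, against r = 0.33 and 62.6% over all genes. These are descriptions across genes, which are not independent replicates, and the same animals may stand behind equal sample numbers.

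**Figure D4:**
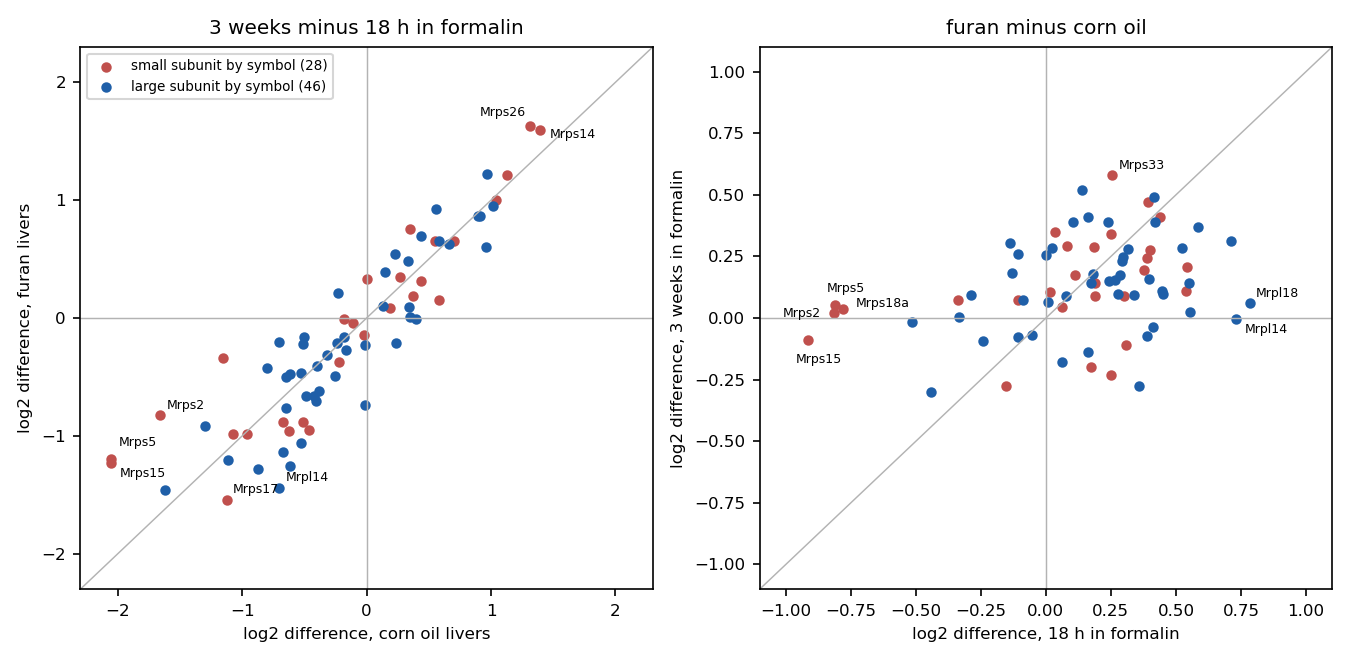
Each point is 1 of the 74 tested members, red for small and blue for large subunit symbols, with the log2 difference of 3 weeks minus 18 h in corn oil (x) and furan (y) livers on the left, and of furan minus corn oil at 18 h (x) and 3 weeks (y) on the right; the diagonal marks equality. The formalin differences lie along the diagonal (r = 0.90), while the furan differences at 3 weeks crowd above 0 with little relation to those at 18 h (r = 0.31).

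For 21 members 2 different probes were tested, which shows how far a reading belongs to the gene and how far to the probe. For furan at 18 h the differences of the brighter and the other probe correlated at r = 0.13 over the 21 pairs, against 0.12 over the 3018 pairs of all genes, and 11 pairs had the same sign. In 8 pairs both probes were called, 5 in the same way (Mrps2, Mrpl10, Mrpl40, Mrpl43 and Mrps36) and 3 in opposite ways. Mrps2 fell on both, by 0.81 and 0.53, and Mrpl43 rose on both, by 0.55 and 0.49. The 3 opposed pairs were Mrpl4, at 0.45 and -0.91, Mrpl22, at 0.42 and -0.57, and Mrps23, at 0.40 and -0.35. The other probe of Mrpl4 read 0.41 to 0.72 in corn oil and -0.55 to -0.19 in furan livers, so both of its probes separated the groups without overlap, in opposite directions. The counts above use the brighter probe, and over all 95 member probes 40 rose and 17 fell (60.0%, against 47.2% of all probes).

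With formalin time in corn oil livers the 2 probes correlated at r = 0.11, against 0.16 over the 3018 pairs of all genes. The sign was shared in 10 of 21 pairs, against 54.6% of the pairs of all genes. In 9 pairs both probes were called, and 7 of the 9 went in opposite ways (Mrpl4, Mrpl10, Mrpl22, Mrps7, Mrps14, Mrps18b and Mrps36). Mrpl4 stood at 0.96 and -1.49, and Mrpl10 at -0.71 and 1.14. The largest rise of the small subunit, Mrps14, had a second probe at -0.86, above background on 2 of 4 arrays at 18 h and 0 of 4 at 3 weeks, so its fall is at least 1.03-fold. On the same footing the second probes of Mrps18b and Mrps36 were at least 1.78-fold and 1.15-fold lower, where a bound takes the higher of the dimmest signal called above background and the probe's own signal on each array. Mrps2 fell on both probes, by 1.66 and 2.46, and Mrpl40 rose on both, by 0.66 and 0.71. The second probe of Mrps2 was above background on 1 of 4 corn oil arrays at 3 weeks, so the size of that fall is uncertain. In furan livers the 2 probes correlated at r = 0.096, against 0.15 over all genes, and 11 of 21 pairs shared the sign, against 54.4%. Of 10 pairs called on both probes there, 6 were opposed (Mrpl4, Mrpl22, Mrps14, Mrps18b, Mrps25 and Mrps36), and 4 went the same way (Mrps2, Mrpl40, Mrpl43 and Mrpl47). The second probes of Mrps14, Mrps18b, Mrps25 and Mrps36 and both of Mrpl47 were above background on 0 of 4 furan arrays at 3 weeks. These second probes were at least 1.41-fold, 1.86-fold, 1.16-fold and 1.58-fold lower in that order, and those of Mrpl47 at least 1.62-fold and 1.35-fold. The second probe of Mrpl22 lost its call there in 10 of 15 fits that left out 1 sample, where its difference ran from -0.39 to -0.18 over the 15. In corn oil livers the second probe of Mrps7 lost its call in 4 such fits and that of Mrps36 in 2. The place of each probe along its transcript was not analysed here.

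**Figure D5:**
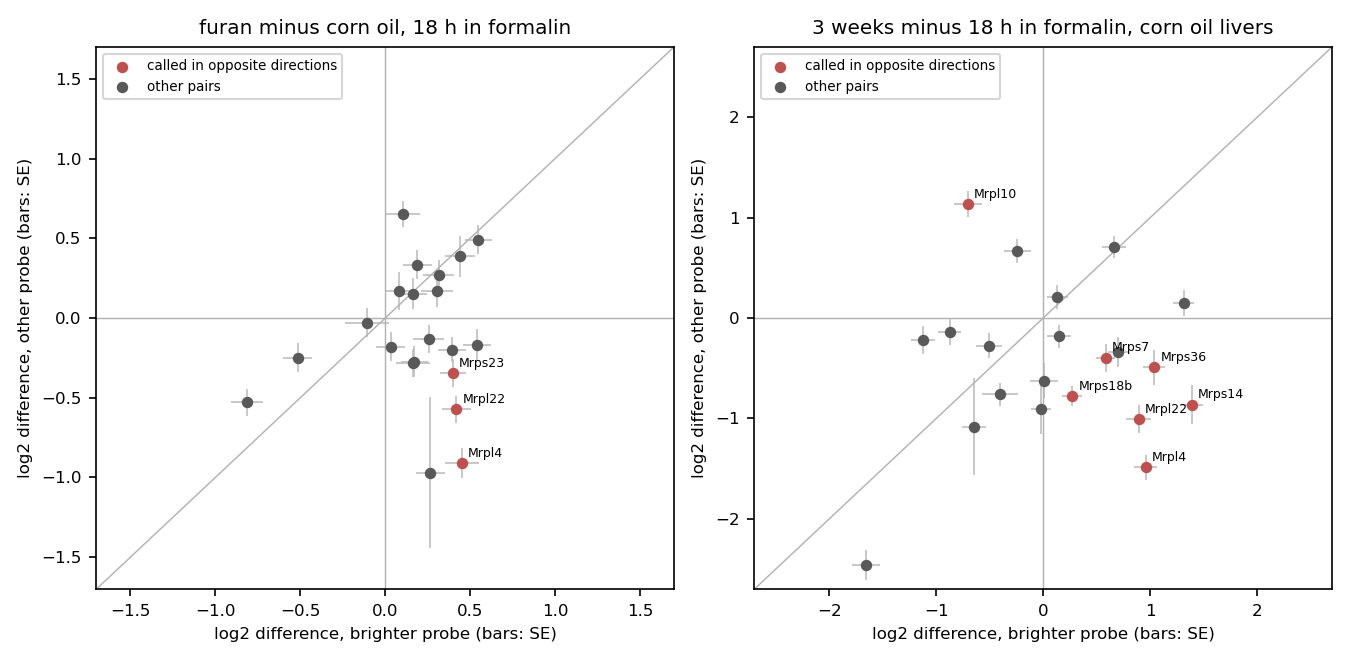
Each point is 1 of the 21 members with 2 tested probes, with the log2 difference of the brighter probe (x) against that of the other probe (y), bars for standard errors and a diagonal for equality, for furan at 18 h (left) and formalin time in corn oil livers (right). Red points, 3 on the left and 7 on the right, are genes whose probes were called in opposite directions.

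Many members start close to another gene that runs the other way. Among the 69 members with a window, 24 (34.8%) had a protein-coding neighbour on the opposite strand whose start lay within 1000 bases upstream, against 8.48% of 17492 protein-coding genes. In 1 case both genes are members: Mrpl46 and Mrps11 start 42 bases apart at chr7:78783090-78783130. A second pair joins Mrps12 to Sars2, the mitochondrial enzyme that charges serine transfer RNA, 147 bases apart at chr7:28741822-28741967. The bases between the 2 starts are shown on the plus strand. They lie before both genes of a pair whose readings differed in direction. Neither stretch holds any of the 3 motifs, while the longer promoter window of Mrps11 holds 1 YY1 core outside its stretch.
Mrpl46 and Mrps11: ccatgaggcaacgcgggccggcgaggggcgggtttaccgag
Mrps12 and Sars2: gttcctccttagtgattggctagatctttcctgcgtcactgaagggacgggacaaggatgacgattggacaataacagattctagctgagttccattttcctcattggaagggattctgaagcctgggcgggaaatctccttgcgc
With formalin time in furan livers Mrps11 rose by 0.76 (SE 0.15) while Mrpl46 fell by 0.66 (SE 0.13) as fitted, at least 1.41-fold, since its probe was below background on every 3-week furan array. The rise of Mrps11 lost its call on slide 1 alone (0.38) and under median centring (0.022; adjusted p = 0.915, limma). In corn oil livers Mrps12 fell by 0.63 and Sars2 rose by 0.39 with formalin time. The Mrps12 probe was above background on 1 of 4 corn oil arrays at 3 weeks, so the size of its fall is uncertain. With furan at 18 h Mrps12 rose by 0.54 and Sars2 stood at 0.20 without passing, and Mrps11 fell by 0.34 while Mrpl46 stood at 0.06. Both genes were tested in 17 such pairs, of which 9 had the same sign for furan at 18 h and 8 for formalin time in corn oil livers. Mrpl18 and Tcp1, a subunit of the cytosolic chaperonin, both rose with furan at 18 h, by 0.78 and 0.36, as did Mrpl14 and Tmem63b, by 0.73 and 0.31. Mrps5 and its neighbour Zfp661 went apart, at -0.81 and 0.32 with furan and -2.06 and 0.84 with formalin time in corn oil livers.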

How the data were processed

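The deposited files hold spot intensities from Agilent Feature Extraction 11.0.1.1, per the file headers, for 16 two-colour arrays with the sample in red (Cy5) and the pool in green (Cy3), per the labels, and no dye swap. The scanner files also hold deposited log10 ratios of red to green made by Feature Extraction, per the file headers, which served as an alternative. The authors' value table holds log2 ratios of sample to pool, taken as deposited; the normalisation behind them is not given in the sources used here. Median signals were background-corrected (normexp, offset 50) and loess-normalised within arrays, flagged and control spots were left out, and spots of a probe were averaged. Limma 3.58.1 in R 4.3.3 fitted all 29690 probes kept, with slide as a term, two-sided, with Benjamini-Hochberg adjustment over all of them and a threshold of 0.05. Each furan test was fitted on livers of one formalin time only, and the other tests on all 15 samples. A gene was counted by its brightest tested probe. Accessions were matched to RefSeq symbols (27235 of 55681 probes). Arrays 2.1 and 2.2 correlated at 0.93 and were averaged. The fit was tested on simulated data.

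Genes named in full were, per comparison and subunit, up to 5 called rises and 5 called falls with groups apart, genes with opposed probes, and 10 genes fixed by role; 2 genes a list were named by smallest p, and Yy1, Gabpa, neighbour genes and members with overlapping groups were added after their values were seen. The members and all lists were chosen with earlier results of these data known. The series text states 4 biological replicates per group. The number of arrays limits the precision. Alternatives were other background corrections, scalings, filters, slides, thresholds and single samples left out.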

Additional observations from a re-analysis of the deposited data

Results flagged for a closer look

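In 4 of 129 groups of 4 livers, 1 liver stood apart from the other 3 by Dixon's 95% criterion, of the size chance gives in about 1 group in 20. These were Mrpl10 in furan liver 42 at 18 h (0.25, next 0.03), Mrpl22 in corn oil liver 6 at 18 h (-0.33, next -0.22), Mrps12 in corn oil liver 2 at 18 h (-0.30, next 0.04) and Mrps7 in the same liver (-0.16, next -0.33).

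For 10 members the furan difference itself differed between formalin times by the interaction test, a share of 13.5% where 12.6% of all genes passed. Each slide alone gave 0. The change was positive in Mrps5 (0.87), Mrps2 (0.83), Mrps15 (0.82) and Mrps18a (0.82) and negative in Mrpl14 (-0.74), Mrpl18 (-0.72), Mrpl54 (-0.64), Mrpl36 (-0.46), Mrpl2 (-0.45) and Mrps7 (-0.43).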

How the results depend on the processing

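For furan at 18 h the 45 calls became 27 at a threshold of 0.01, 18 on slide 1 alone and 21 on slide 2 alone, and 35 to 41 with 1 liver left out. For furan at 3 weeks the 0 became 1 without background subtraction (Mrps18b), 21 under median centring and 6 with all 15 samples, and stayed at 0 to 0 with 1 sample left out. For the difference between times the 10 became 16 without background subtraction, 6 with Agilent's log ratios, 19 with the authors' values (4 higher, 15 lower), 6 without a filter, 0 on either slide, 4 at 0.01 (Mrps15, Mrps2, Mrpl14 and Mrpl18), and 5 to 11 with 1 sample left out. The formalin counts, 56 and 55, stayed at 52 to 58 and 53 to 57 with 1 sample left out.

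Signs turned for named genes as follows. At 18 h Mrpl51 turned under median centring (0.30), Mrpl12 there and in the authors' values (0.45 and 0.072), and Mrps22 on slide 2 (-0.017) and without corn oil liver 3 (from -0.028 to 0.121 with 1 liver left out). At 3 weeks Mrps22 turned without background subtraction, in the authors' values and on slide 1 (-0.019, -0.0031 and -0.030) and without furan liver 43 (-0.040 to 0.122), Mrpl12 under median centring (0.20), and Mrps18a on slide 2 (-0.29) and without corn oil 4 or furan 42 (-0.14 to 0.122). With formalin time in corn oil livers Mrpl44, Mrps30, Mrps18b and Mrps7 turned under median centring (-0.23, -0.45, -0.043 and -0.014). In furan livers Mrps30, Mrps18b and Mrps25 turned there (-0.79, -0.023 and -0.037), Mrps30 in the authors' values (-0.056), Mrps18a on slide 1 (0.0405), and Mrpl44 without background subtraction, on slide 2 (0.023 and 0.016) and without furan 42 or 43 at 18 h or 41 at 3 weeks (-0.039 to 0.045). The cause of these changes was not tested.

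With the replicate block, which takes sample numbers as pairs across formalin times, the difference had 3 calls (Mrps15, Mrpl18 and Mrpl54) and the formalin comparisons 46 and 54. Deviations of same-numbered samples correlated at 0.02 to 0.18 over 7 pairs, all positive, and those of different numbers at -0.16 to 0.10. Not all of the 7 were above 0.1, so the main fits did not pair the samples, but these values do not exclude a pairing. At 3 weeks fewer member probes were above background, which limits what a difference there can show.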
